A study of Mus musculus with 2 samples.

Results

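Regulatory T cells that settle in non-lymphoid tissue can be recognised by ST2, the IL-33 receptor encoded by Il1rl1, and by KLRG1, an inhibitory lectin-like receptor for cadherins. In 2 single-cell libraries of mouse lung CD4+ cells, 835 cells were selected that carried at least 1 unique transcript count (UMI) of Foxp3 and at least 1 UMI of Il1rl1 or Klrg1. Each also had at least 500 detected genes, under 10% mitochondrial UMIs, at least 2 UMIs summed over Cd3d, Cd3e and Cd3g, no Lyz2 UMI and fewer than 2 UMIs of the cycling genes Mki67 and Top2a. These gated cells were 835 of 1371 Foxp3 cells, of 8185 non-cycling T cells and of 12537 barcodes in all. The remaining 536 Foxp3 cells, with no UMI of either receptor gene, are called the other Foxp3 cells and served as the comparison.

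The study asked about NRF2, the oxidative stress transcription factor encoded by Nfe2l2, in helper T cells during allergic airway inflammation. The control library came from Nfe2l2fl/fl mice, whose Nfe2l2 alleles carry loxP sites, and the other from Cd4cre Nfe2l2fl/fl mice, in which Cre recombinase is driven by the Cd4 promoter and so acts in T cells that have expressed CD4, Foxp3 cells included. The mice were 8 to 15 weeks old, and the lungs were taken 16 hours after the last intranasal dose. The protocol covers an Ova with PAO model, a Der f 1 house dust mite model and mixed bone marrow chimeras, without saying which of them supplied these libraries or how many mice each library held. With 1 library per genotype, no difference below has a replicate check or a test, and genotype, mouse and library cannot be told apart. Intervals are 95% exact intervals unless named otherwise, and they cover counting error only.

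Foxp3 is the lineage factor of regulatory T cells, which restrain other immune cells. In lung and other barrier tissues, regulatory T cells with ST2 respond to IL-33 released from damaged epithelium and can make amphiregulin, an epidermal growth factor family ligand that acts on epithelium and stroma. KLRG1 appears on terminally differentiated effector regulatory T cells, whereas resting ones keep the lymph node homing receptor CCR7 and the transcription factors TCF-1 (Tcf7) and KLF2.

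The control library held 346 gated and 228 other Foxp3 cells, and the library labelled Cd4cre held 489 and 308. Their summed UMIs were 2509985 and 1421010 in the control library, and 3219173 and 1874089 in the library labelled Cd4cre. Gated cells were slightly deeper, with a median of 5861 UMIs per cell against 5350 in the control library and of 5726 against 5198 in the library labelled Cd4cre. A deeper cell is more likely to show 1 UMI of a receptor gene, so shares of cells are given after thinning each cell to 2000 UMIs, which left out 2 gated and 8 other Foxp3 cells of the control library and 8 and 8 of the library labelled Cd4cre. The libraries shared 49 cell barcodes, including those of 3 gated cells of the control library and 5 of the library labelled Cd4cre, and no barcode was gated in both. Nfe2l2 stood at 27.1 UMIs per 1000000 UMIs (CPM) in the gated cells of the control library (21.0 to 34.3) and at 147 CPM in those of the library labelled Cd4cre (134 to 160). The targeted transcript was thus higher, not lower, in the library labelled Cd4cre. The libraries count the 5′ ends of transcripts, and the labels used here do not name the flanked exon, so these counts do not check the deletion.

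Il1rl1 lies at chr1:40429570-40465415 on the plus strand, Klrg1 at chr6:122270596-122282882 on the minus strand and Foxp3 at chrX:7573644-7595245 on the plus strand (GRCm38, GENCODE vM21). These genes chose the cells, and their values are a description. Gated cells of the control library carried 281 CPM of Il1rl1 and 415 CPM of Klrg1, and those of the library labelled Cd4cre 231 and 492 CPM. Foxp3 itself stood at 594 CPM in gated and 598 CPM in other Foxp3 cells of the control library, and at 601 and 546 CPM in the library labelled Cd4cre. Foxp3 level therefore separated the gated cells little from the other Foxp3 cells. Just inside the Foxp3 threshold lay 46 gated cells with 1 Foxp3 UMI in the control library and 92 in the library labelled Cd4cre, and just outside it 844 and 785 otherwise matching T cells with none. Just inside the receptor threshold lay 65 and 102 cells with 1 UMI of Il1rl1 and Klrg1 in sum. The Lyz2 limit left out 8 and 16 otherwise matching cells with 1 Lyz2 UMI, and the limit on cycling genes left out 66 and 76.

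The label of regulatory T cell was checked against genes that did not choose the cells. Ikzf2, which encodes the regulatory T cell factor Helios, stood at 458 CPM in gated cells (432 to 485) and 349 CPM in other Foxp3 cells (319 to 381) of the control library, against 42.9 CPM in non-cycling T cells with no Foxp3 UMI. In the library labelled Cd4cre the same levels of Ikzf2 were 545 (520 to 571), 385 (357 to 414) and 48.5 CPM. Il2ra, the high-affinity IL-2 receptor chain, stood at 710 CPM in gated cells and 124 CPM in T cells with no Foxp3 UMI of the control library, and at 769 and 108 CPM in the library labelled Cd4cre. Ctla4, which competes with CD28 for its ligands, stood at 2062 against 999.5 CPM and at 1946 against 833 CPM in the same sets. Tnfrsf18, which encodes the receptor GITR, stood at 1019 against 331 CPM and at 1057 against 331 CPM. Each of these genes was higher in gated cells than in T cells with no Foxp3 UMI in both libraries.

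Droplets with at least 5 Lyz2 UMIs and no Cd3 UMI, which should lack Foxp3, gave the level that free RNA can reach. After thinning, a Foxp3 UMI was found in 9.74% of all non-cycling T cells of the control library, which were not chosen on Foxp3, and in 0 of 169 such droplets, for which 3 counts would be 1.78%. The shares in the library labelled Cd4cre were 13.7% of T cells and 3 of 623 droplets (0.482%). Ikzf2 was found in 56.1% and 63.8% of gated cells, and in 2.37% and 0.482% of the droplets. The droplets were shallower, with medians of 2779.5 and 3570.5 UMIs before thinning.

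Markers of other cell types were uneven in the gated cells. Of 14 CD8, natural killer and innate lymphoid markers, 5 had no UMI in gated cells of each library, among them Ncr1, Klrb1c, Klra8 and Klra4 in both. Others of that list were present, with Tyrobp at 111 and 202 UMIs in gated cells of the control library and the library labelled Cd4cre, against 21 and 177 in other Foxp3 cells, Cd8b1 at 50 and 76 and Calca at 55 and 31. The list summed to 95.6 CPM in gated, 57.0 CPM in other Foxp3 cells and 193 CPM in T cells with no Foxp3 UMI of the control library, and to 119, 139 and 175 CPM in the library labelled Cd4cre. Dendritic cell markers summed to 467, 379 and 260 CPM in the same sets of the control library, and to 665, 645 and 325 CPM in the library labelled Cd4cre. Bst2, an interferon-induced gene, gave 734 and 1509 UMIs of that sum in gated cells, and Irf8 256 and 429. Of 19 macrophage markers other than Lyz2, 7 had no UMI in gated cells of the control library and 1 had none in those of the library labelled Cd4cre. Their summed level was 778 CPM in gated, 770 CPM in other Foxp3 cells and 706 CPM in T cells with no Foxp3 UMI of the control library, and 944, 823 and 689 CPM in the library labelled Cd4cre. Ctss, Cst3 and Ctsd gave 631, 579 and 498 UMIs of that sum in gated cells of the control library. The plasmacytoid dendritic cell marker Siglech had 44 UMIs in gated and 0 in other Foxp3 cells of the control library, and 78 and 58 in the library labelled Cd4cre. The part of such RNA in the values below was not tested, and no doublet caller was run.

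The promoters below belong to named genes with higher levels in gated than in other Foxp3 cells, and were picked after the search because they hold a motif of a factor family linked to tissue regulatory T cells. They are RefSeq windows on GRCm38.p6, given 5′ to 3′ on the minus strand, at chr8:84045001-84045229 for Rln3, chr14:56262335-56262584 for Gzmb and chr3:95739570-95739819 for Ecm1. For Rln3 the last 21 bases of the window lie inside its GENCODE span and are left off. Its printed sequence of 229 bases thus ends 21 bases short of the RefSeq start. Capitals mark the GATA motif AGATAA or its reverse complement TTATCT in Rln3, and the AP-1 motif TGANTCA in Gzmb and Ecm1.
Rln3: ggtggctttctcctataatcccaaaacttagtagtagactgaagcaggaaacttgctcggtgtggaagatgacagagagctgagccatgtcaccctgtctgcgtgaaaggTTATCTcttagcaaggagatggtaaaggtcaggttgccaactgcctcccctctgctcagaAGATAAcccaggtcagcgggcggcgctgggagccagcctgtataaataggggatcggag
Gzmb: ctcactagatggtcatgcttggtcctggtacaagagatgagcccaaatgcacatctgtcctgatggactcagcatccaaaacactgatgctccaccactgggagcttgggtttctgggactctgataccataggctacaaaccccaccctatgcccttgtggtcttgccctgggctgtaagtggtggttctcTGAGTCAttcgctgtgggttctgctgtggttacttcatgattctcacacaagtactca
Ecm1: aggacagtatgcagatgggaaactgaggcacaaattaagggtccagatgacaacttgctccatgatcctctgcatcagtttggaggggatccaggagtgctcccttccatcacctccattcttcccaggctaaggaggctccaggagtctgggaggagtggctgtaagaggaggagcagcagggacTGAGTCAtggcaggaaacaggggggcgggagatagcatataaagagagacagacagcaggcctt
The GATA motifs of Rln3 begin 140 and 80 bases before its RefSeq start, and the AP-1 motifs begin 58 bases before that of Gzmb and 64 bases before that of Ecm1. Both strands were searched in the 250 bases before each start. Over 32851 such windows, 6.75% held the AP-1 motif, 9.99% the GATA motif and 1.43% the NF-kB motif GGGANTTCC or its reverse complement GGAANTCCC. Of the 20 named genes with higher levels in gated cells, 16 had a RefSeq window, and among their 25 windows 6 held AP-1, 5 GATA and 1 NF-kB. Some windows of the same gene overlap and share a site. By gene, 5 of the 16 held AP-1, 4 GATA and 1 NF-kB, and the shares over all windows were not counted by gene. Of the 12 named lower genes, 7 had a window each, of which 2 held AP-1 and none GATA or NF-kB. A match describes the letters and not a bound site.

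Within the Foxp3 cells, the gate held 60.3% (56.1 to 64.3) in the control library and 61.4% (57.9 to 64.8) in the library labelled Cd4cre. The difference was 1.08 percentage points with a Newcombe interval of -4.13 to 6.32. After thinning, with the Foxp3 cells as first chosen, the shares were 43.6% and 45.1%. The gate thus took a like share of Foxp3 cells from both libraries.

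The makeup of the gate differed more. Cells with Klrg1 but no Il1rl1 were 97 of 346 gated cells (28.0%) in the control library and 204 of 489 (41.7%) in the one labelled Cd4cre, which differ by 13.7 points (7.13 to 20.0). Cells with Il1rl1 but no Klrg1 were 93 (26.9%) and 96 (19.6%), and cells with both were 156 (45.1%) and 189 (38.7%). After thinning, Il1rl1 was found in 26.2% and 21.0% of Foxp3 cells, a difference of -5.24 points (-9.90 to -0.67). Klrg1 was found in 29.4% and 34.2% of them, and its difference of 4.75 points had an interval that included 0 (-0.31 to 9.71). Klrg1 was also more frequent among T cells with no Foxp3 UMI in the library labelled Cd4cre, at 5.05% against 1.61% in the control library.

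Klrg1 was more frequent among Foxp3 cells that held Il1rl1. After thinning, its share was 45.9% of Foxp3 cells with Il1rl1 and 23.6% of those without in the control library, and 48.2% and 30.5% in the library labelled Cd4cre. Among T cells with no Foxp3 UMI the same shares were 4.32% and 1.25% in the control library, and 6.81% and 4.84% in the library labelled Cd4cre. Of the Lyz2 droplets, none of 169 held Klrg1 in the control library and 1 of 623 did in the library labelled Cd4cre.

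Across all genes, few separated the gated cells from the other Foxp3 cells by 2-fold. UMIs were summed per library and set, 10 CPM was added to each level, and a gene was called where the ratio reached 2-fold in the same direction in both libraries, among 7779 genes with at least 30 UMIs in each. Called higher were 6 genes (0.0771% of those measured), which were Rln3, Ctsh, Ccl4, Plac8, Cxcl2 and Il13. Called lower were 3 genes (0.0386%), which were Ccr7, Tcf7 and the T cell receptor segment Trbv13-2. The rule used this contrast, so these counts are a description. When cells were thinned to 2000 UMIs and gated again, so that cells left with no receptor UMI joined the other Foxp3 cells, none of the 6 higher genes was called and Ccr7 alone of the 3 lower ones was. The 2 higher and 3 lower calls then held 4 further genes, Hspa1b, Igkc, Pmpcb and Tnfrsf25, named after their values were seen. The Foxp3, Cd3, Lyz2 and cycling limits were also applied again to the thinned counts. The minimum of 30 UMIs stayed, so a low gene could lose its call by falling below it. With 50 CPM added, Rln3 was the 1 call. The median log2 ratio over all genes was -0.01 in the control library and -0.03 in the library labelled Cd4cre. Ctsh and Trbv13-2 fall outside the rule for named genes and were picked after their values were seen.

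**Figure D1:**
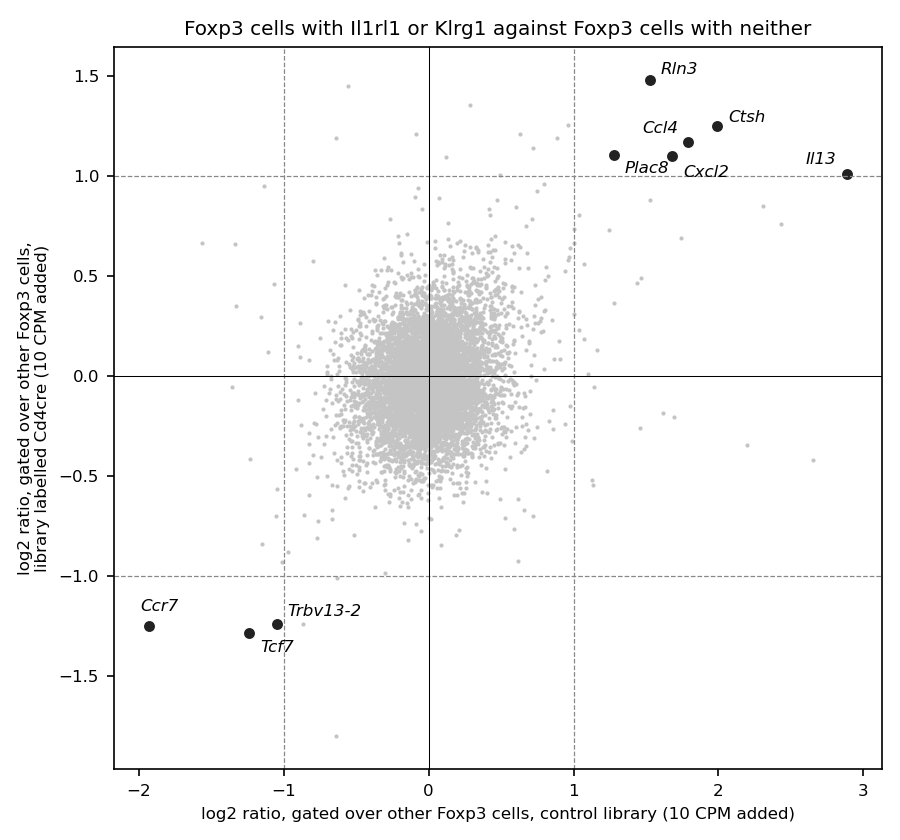
Each grey point is 1 of 7779 genes, placed by its log2 ratio of gated over other Foxp3 cells in the control library (x axis) and in the library labelled Cd4cre (y axis), with 10 CPM added. Black points are the 9 called genes, dashed lines mark 2-fold, and most genes lie near 0 on both axes.

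Rln3, which encodes the peptide hormone relaxin-3, was at 363 CPM in gated cells (340 to 388) and 120 CPM in other Foxp3 cells (102 to 139) of the control library. The library labelled Cd4cre had 219 (203 to 236) and 72.0 CPM (60.4 to 85.3). Both ratios were 3.04-fold, and the UMIs came from 127 and 144 gated cells. Thinned and gated again, the log2 ratio went from 1.53 to 1.48 in the control library and from 1.48 to 0.74 in the library labelled Cd4cre, where the call was lost. After thinning, Rln3 was found in 26.5% of gated and 11.8% of other Foxp3 cells of the control library, in 22.5% and 7.33% of those of the library labelled Cd4cre, and in 0.988% and 1.13% of T cells with no Foxp3 UMI. The gene lies at chr8:84042929-84045000 on the minus strand, 339 bases from Il27ra, which encodes the IL-27 receptor and is read on the same strand. Il27ra was at 95.6 CPM in gated and 106 CPM in other Foxp3 cells of the control library, and at 106 and 113 CPM in the library labelled Cd4cre, so its levels did not follow those of Rln3.

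Ctsh, which encodes the lysosomal protease cathepsin H, was at 49.4 CPM in gated cells (41.1 to 58.9) and 4.93 CPM in other Foxp3 cells (1.98 to 10.2) of the control library. The library labelled Cd4cre had 65.9 (57.3 to 75.3) and 21.9 CPM (15.7 to 29.7). The UMIs came from 73 and 108 gated cells, and T cells with no Foxp3 UMI held 9.17 and 8.92 CPM. Cxcl2, a neutrophil-attracting chemokine, was at 461 against 137 CPM in the control library and 356 against 161 CPM in the library labelled Cd4cre, in 96 and 122 gated cells. Its log2 ratio in the control library went from 1.68 to 0.56 after thinning and gating again, and that in the library labelled Cd4cre from 1.10 to 0.90 without cells that held Il4, Il5 or Il13. Plac8 was at 217 against 83.7 CPM and at 210 against 92.3 CPM, below its 547 and 633 CPM in T cells with no Foxp3 UMI. Its log2 ratio in the control library went from 1.28 to 0.062 after thinning and gating again, and to 0.49 without the cells that held those cytokines.

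The other called cytokine genes rested on few cells. Ccl4, an inflammatory chemokine, was at 200 against 50.7 CPM in the control library and 146 against 59.2 CPM in the library labelled Cd4cre. It was seen in 15 and 21 gated cells, and the 5 highest cells held 91.6% and 86.4% of its UMIs. Il13, a type 2 cytokine, was at 502 against 59.1 CPM and at 70.2 against 29.9 CPM, in 38 and 18 gated cells. The 5 highest cells held 75.5% and 77.9% of the Il13 UMIs. After thinning and gating again, the log2 ratios in the control library turned to -3.49 for Ccl4 and -0.061 for Il13. In the control library Il13 stood at 2442 CPM in gated cells with 1 Foxp3 UMI and 144 CPM in those with more, against 55.5 and 73.2 CPM in the library labelled Cd4cre.

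Amphiregulin and granzyme B, effector products of tissue and activated regulatory T cells, were higher in gated cells of both libraries without passing 2-fold in both. Areg lies at chr5:91139599-91148432 on the plus strand. It stood at 1796 CPM in gated cells (1744 to 1849) and 849 CPM in other Foxp3 cells (802 to 899) of the control library, while the library labelled Cd4cre had 1338 (1299 to 1379) and 903 CPM (861 to 947). The ratios were 2.11-fold and 1.48-fold. After thinning, Areg was found in 53.8% of gated and 31.4% of other Foxp3 cells of the control library, and in 47.4% and 29.3% in the library labelled Cd4cre, against 3.55% and 4.01% of the Lyz2 droplets. Areg was not confined to Foxp3 cells, since T cells with Il1rl1 and no Foxp3 UMI held 2631 and 2191 CPM.

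Gzmb lies at chr14:56258838-56262260 on the minus strand. It stood at 953 CPM in gated cells (916 to 992) and 544 CPM in other Foxp3 cells (506 to 584) of the control library, while the library labelled Cd4cre had 963 (929 to 997) and 489 CPM (458 to 522). The ratios were 1.75-fold and 1.97-fold, and T cells with no Foxp3 UMI held 41.0 and 80.0 CPM. After thinning, Gzmb was found in 43.3% of gated and 24.5% of other Foxp3 cells of the control library, and in 46.4% and 27.3% in the library labelled Cd4cre. Penk, which encodes the precursor of enkephalins, was at 217 against 127 CPM and at 310 against 136 CPM, in 30 and 55 gated cells, and its log2 ratio in the control library turned to -0.082 after thinning and gating again.

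Transcription factors and regulators also differed. Gata3, which drives ST2 expression in regulatory T cells and type 2 helper cells, was at 268 CPM in gated (248 to 289) and 160 CPM in other Foxp3 cells (140 to 182) of the control library. The library labelled Cd4cre had 207 (191 to 223) and 116 CPM (101 to 132), so the ratios were 1.68-fold and 1.78-fold. Nfkbiz, an atypical NF-kB inhibitor protein, was at 462 against 230 CPM and at 366 against 231 CPM. Hopx, a homeodomain cofactor, was at 559 against 364 CPM and at 879 against 486 CPM. Among the other named higher genes, Ecm1 was at 160 against 113 CPM and at 107 against 73.6 CPM, and Fgl2, a secreted effector of regulatory T cells, at 281 against 192 CPM and at 331 against 220 CPM.

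Genes of resting and recirculating T cells were lower in gated cells. Ccr7 was at 42.2 CPM in gated cells (34.6 to 51.1) and 189 CPM in other Foxp3 cells (167 to 213) of the control library. In the library labelled Cd4cre it was at 81.4 (71.8 to 91.9) and 207 CPM (187 to 229), so it was 4.48-fold and 2.54-fold lower. After thinning, Ccr7 was found in 3.49% of gated and 12.3% of other Foxp3 cells, and in 6.03% and 14.7%. Tcf7 was at 12.7 CPM in gated (8.72 to 17.998) and 43.6 CPM in other Foxp3 cells (33.5 to 55.9) of the control library, while the library labelled Cd4cre had 15.5 (11.5 to 20.5) and 52.3 CPM (42.5 to 63.7). After thinning, Tcf7 was found in 2.03% and 2.70% of gated cells and in 6.36% and 9.33% of other Foxp3 cells. Among T cells with no Foxp3 UMI its share was 21.3% in each library. Both Ccr7 and Tcf7 lost their call when 2 Foxp3 UMIs were required.

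Klf2, which keeps T cells recirculating in part by driving S1pr1, was at 191 CPM in gated and 408 CPM in other Foxp3 cells of the control library, and at 173 and 287 CPM in the library labelled Cd4cre. S1pr1, the receptor by which T cells leave tissue along a lipid gradient, was at 59.8 against 95.003 CPM and at 52.5 against 76.8 CPM. Il17a was at 163 against 260 CPM and at 47.2 against 189 CPM, in 34 and 33 gated cells, of whose UMIs the 5 highest cells held 70.9% and 59.9%. Trbv13-2 was at 106 against 230 CPM and at 79.2 against 201 CPM. By the V segment with most UMIs in a cell, it was used by 43 of 314 gated cells (13.7%) and 35 of 211 other Foxp3 cells (16.6%) of the control library, and by 48 of 433 (11.1%) and 39 of 270 (14.4%) of the library labelled Cd4cre.

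**Figure D2:**
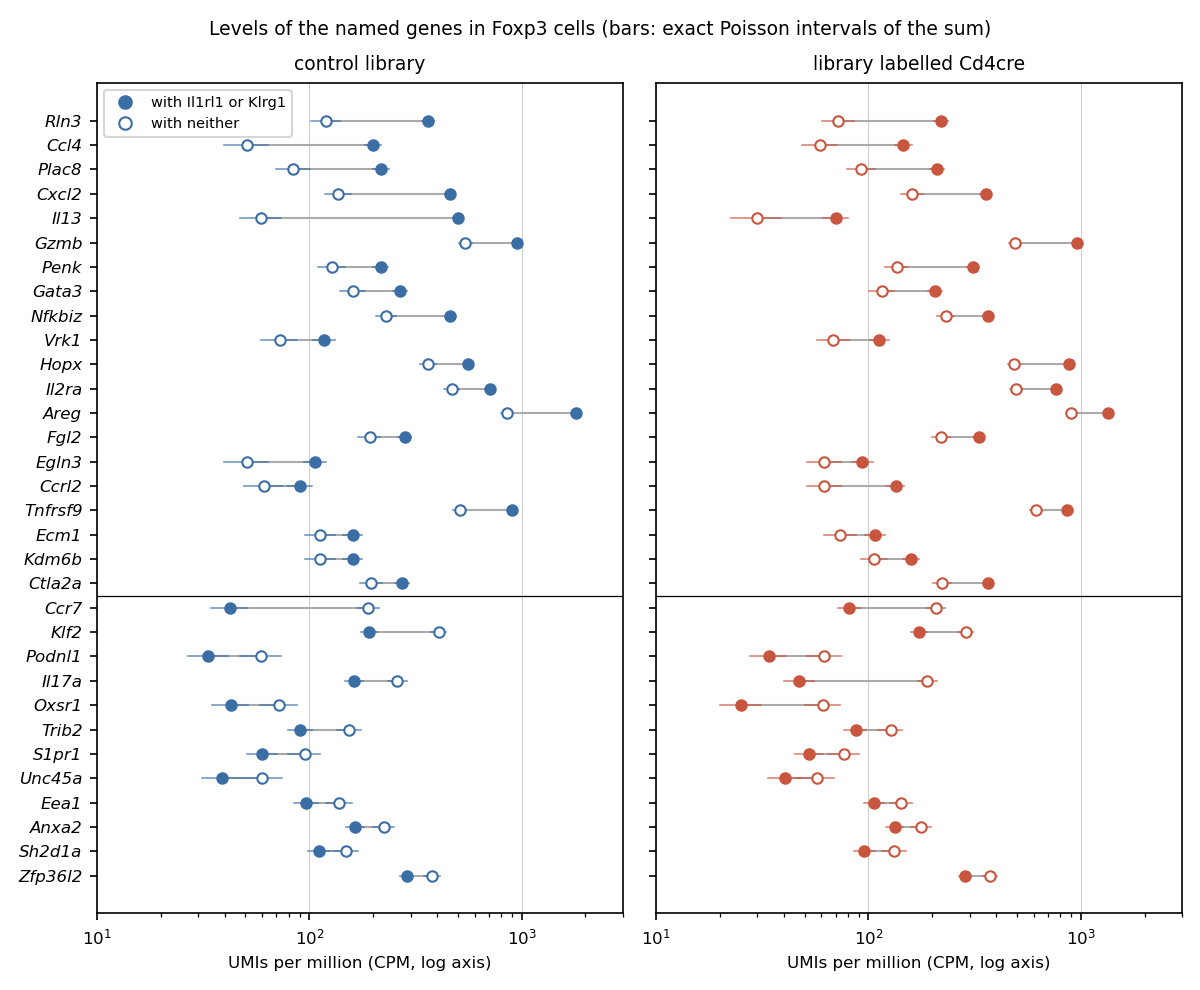
Levels in CPM (log x axis) of the 20 named genes higher and the 12 named genes lower in gated cells, in the control library (left) and the library labelled Cd4cre (right). Filled points are gated cells, open points other Foxp3 cells, and bars are exact Poisson intervals of the sum. In both panels the filled point lies to the right of the open one above the dividing line and to its left below. The naming rule required the same direction in both libraries, so this order was fixed by the choice of genes.

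Gene lists were described by the direction of their members in both libraries, beside all 7779 measured genes, of which 24.6% were higher in gated cells of both libraries and 30.9% lower. Of 40 measured members of the tissue regulatory T cell list, 27 were higher in gated cells of both libraries and 8 lower, none was called, and the median log2 ratios were 0.25 and 0.23. Besides Areg, Gzmb, Gata3 and Penk, the list held Tnfrsf4, which encodes the costimulatory receptor OX40, at 2782 against 1864 CPM and 2632 against 1934 CPM. Among its 8 lower members were Il10, with log2 ratios of -0.20 and -0.12, Pdcd1, with -0.17 and -0.04, and Lag3. Counted per thinned cell, the list gave a median of 52 UMIs in gated and 40 in other Foxp3 cells of the control library, and 51 and 40 in the library labelled Cd4cre. In the list of resting and lymphoid genes, 15 of 21 were lower in both libraries and 4 higher, 2 were called lower, and the medians were -0.49 and -0.12. Per thinned cell that list gave a median of 2 UMIs in gated and 3 in other Foxp3 cells of the control library, and 2 in both sets of the library labelled Cd4cre. Il7r, the IL-7 receptor chain, went the other way in that list, at 218 against 123 CPM and 191 against 143 CPM.

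The core regulatory list moved less, with 11 of 19 members higher in both libraries, 4 lower and medians of 0.08 and 0.13. In the suppressive and repair list, 9 of 17 were higher in both and 5 lower. Il10, the anti-inflammatory cytokine, was at 281 CPM in gated and 325 CPM in other Foxp3 cells of the control library, and at 283 and 308 CPM in the library labelled Cd4cre. Lag3, an inhibitory receptor, was at 526 against 610 CPM and at 444 against 612 CPM. The gated cells thus held more Areg and Gzmb, but not more Il10 or Lag3, than the other Foxp3 cells.

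Of 16 alarmin and IL-1 family genes, 8 were higher in both libraries and 3 lower. Nfkbia, the NF-kB inhibitor that NF-kB itself induces, was at 3401 against 2469 CPM and at 3100 against 2337 CPM. Il1r2, the decoy IL-1 receptor, was at 355 against 250 CPM in the control library and at 234 against 297 CPM in the library labelled Cd4cre, so its direction differed. Of 14 class I antigen presentation genes, 13 were higher in gated cells of both libraries and none lower, with medians of 0.17 and 0.21. H2-K1 was at 4665 against 3768 CPM and at 5285 against 4459 CPM.

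Of 13 type 2 helper genes, 10 were higher in both libraries, 1 lower and 2 called higher, Il13 and Plac8, with medians of 0.75 and 0.76. Cells with a UMI of Il4, Il5 or Il13 were 40 of 346 gated cells (11.6%) in the control library and 19 of 489 (3.89%) in the library labelled Cd4cre, and 18 of 228 (7.89%) and 17 of 308 (5.52%) of the other Foxp3 cells. Of the UMIs of these 3 cytokines in gated cells of the control library, 1216 of 1561 (77.9%) lay in cells with 1 Foxp3 UMI, against 39 of 289 (13.5%) in the library labelled Cd4cre. Of 10 Th17 genes 7 were lower in both libraries and 3 higher. Of 22 NRF2 target genes 5 were higher and 6 lower in both, near the shares over all genes, with medians of 0.05 and -0.03. Of 28 oxidative phosphorylation genes 4 were higher and 13 lower, with medians of -0.00 and -0.06.

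The levels were followed over the summed UMIs of Il1rl1 and Klrg1 per cell, from 0 through 1, 2 to 3 and 4 to 6 to at least 7. Areg was at 849, 944, 1601, 2059 and 2191 CPM in the control library and at 903, 919, 1250, 1444 and 1604 CPM in the library labelled Cd4cre. Areg thus increased at each step in both. Ikzf2 was at 349, 401, 500, 461 and 450 CPM and at 385, 487, 571, 585 and 530 CPM, and did not climb beyond the middle classes. Klf2 was at 408, 256, 248, 159 and 137 CPM in the control library and at 287, 239, 150, 241 and 98.7 CPM in the library labelled Cd4cre. Il10 had no steady order, at 325, 167, 337, 248 and 330 CPM and at 308, 352, 278, 230 and 282 CPM. The classes also differ in depth, from medians of 5350 and 5198 UMIs per cell at 0 to 6834 and 6807 at the top.

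**Figure D3:**
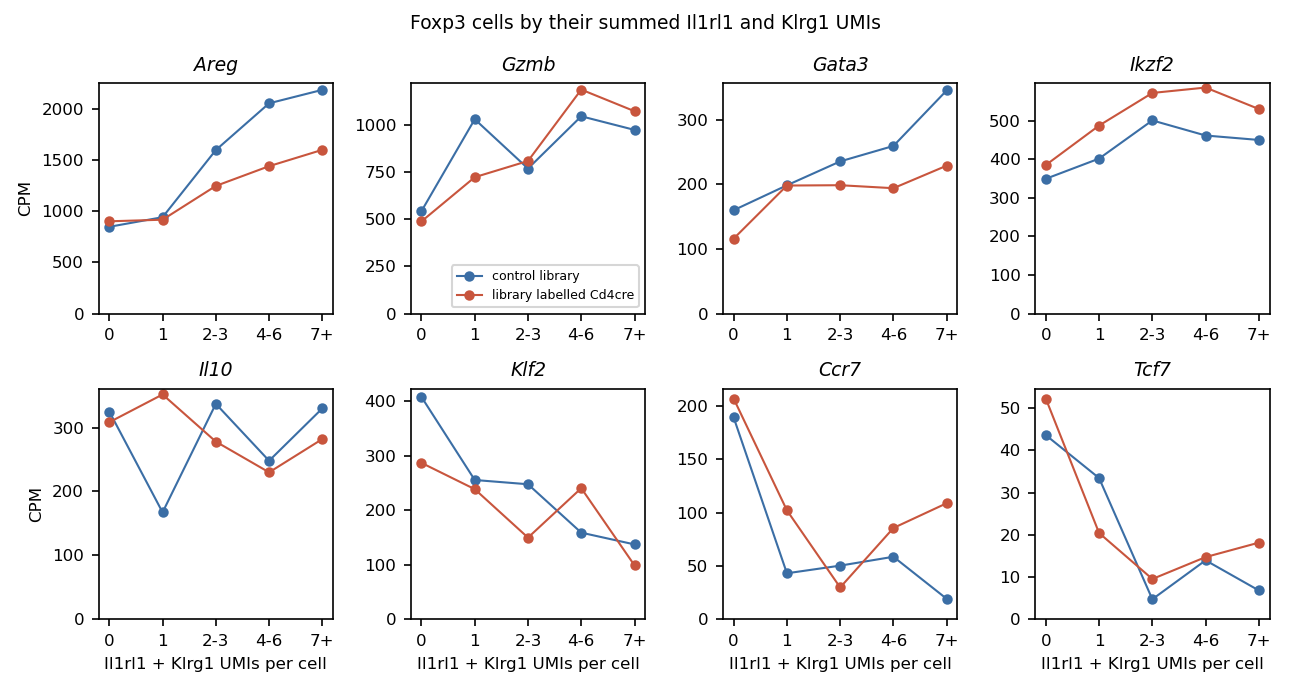
Level in CPM (y axis, from 0) of 8 genes in Foxp3 cells grouped by their summed Il1rl1 and Klrg1 UMIs (x axis), in the control library (blue) and the library labelled Cd4cre (red), 1 point per class of 65 to 308 cells. Areg climbs from 849 to 2191 CPM and from 903 to 1604 CPM, while Klf2 is lowest in the top class of both.

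Gated cells with Il1rl1 alone were then set against those with Klrg1 alone by the same measure. Called higher were 5 of 5031 genes (0.0994%) on the Il1rl1 side and 5 (0.0994%) on the Klrg1 side. The receptor genes form the sides, so the counts are a description. On the Klrg1 side, Gzmb was at 1664 CPM against 464 CPM with Il1rl1 alone and 871 CPM with both in the control library. In the library labelled Cd4cre it was at 1179, 444 and 998 CPM. Penk was at 395 against 95.1 CPM and at 360 against 127 CPM. Cxcr3, a chemokine receptor of type 1 inflammation, was at 149 against 65.2 CPM and at 208 against 97.0 CPM. Sv2c and 1700017B05Rik completed the calls on that side, of which the unnamed gene model was picked after its value was seen. Il10 was at 409 against 234 CPM and at 345 against 192 CPM, below 2-fold in both. The other Foxp3 cells held 544 and 489 CPM of Gzmb and 325 and 308 CPM of Il10. In both libraries, Gzmb with Il1rl1 alone was thus below the other Foxp3 cells, and Il10 with Klrg1 alone was above them.

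On the Il1rl1 side, Tnfsf11, which encodes RANKL, was at 73.3 CPM against 20.4 CPM in the control library and at 64.1 against 9.76 CPM in the library labelled Cd4cre. Tnfsf8, which encodes the CD30 ligand, was at 124 against 20.4 CPM and at 61.0 against 18.01 CPM. Itgb1, an integrin chain, was at 145 against 64.2 CPM and at 213 against 87.8 CPM. Il13 was at 972 against 43.9 CPM and at 122 against 33.0 CPM, and Dgat2, picked after its value was seen, was the remaining call. In the whole gate Il13 was seen in 38 and 18 cells, with most of its UMIs in a few of them, as given above. The ratios between the sides were not tried under the alternative settings. Areg was highest in cells with both receptors, at 2351 CPM against 1499 with Il1rl1 alone and 1150 with Klrg1 alone in the control library, and at 1824, 937 and 1077 CPM in the library labelled Cd4cre. Gata3 had its highest level there too, at 311, 257 and 205 CPM and at 265, 213 and 149 CPM.

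**Figure D4:**
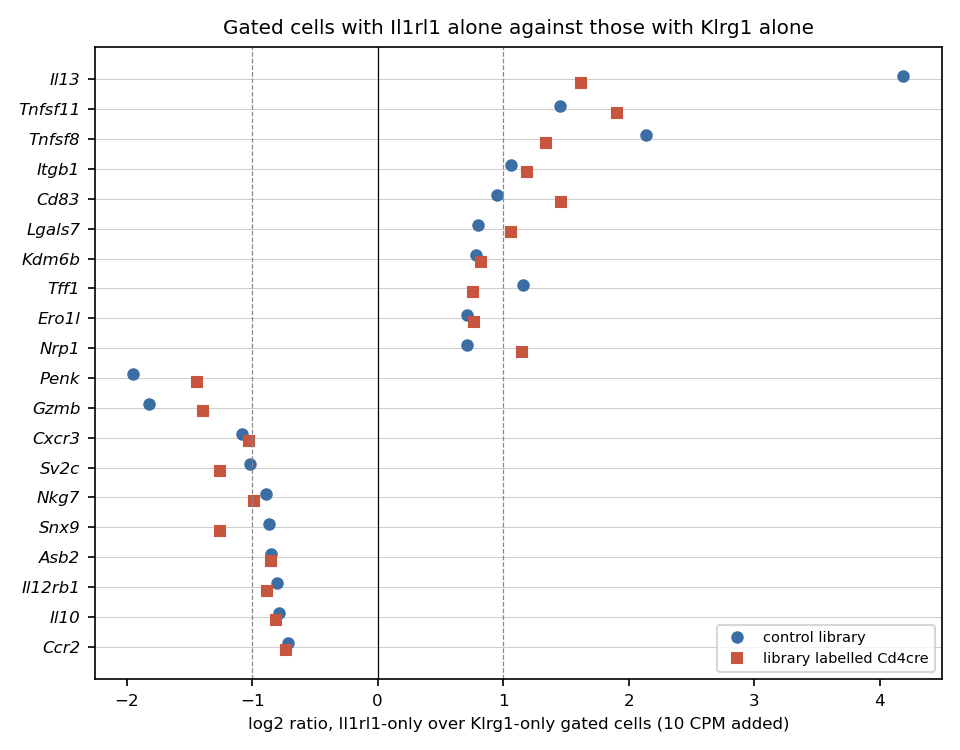
Log2 ratio of gated cells with Il1rl1 alone over those with Klrg1 alone, with 10 CPM added, for 10 named genes of each side in the control library (circles) and the library labelled Cd4cre (squares). Dashed lines mark 2-fold. The 20 genes were picked among those with the same sign in both libraries, so the 2 libraries lie on the same side of 0 by choice.

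Between the libraries, gated cells differed in 42 of 8581 genes at 2-fold or more, of which 18 (0.21%) had the higher level in the library labelled Cd4cre and 24 (0.28%) the lower. The other Foxp3 cells had 23 higher and 23 lower of 7479. The median log2 ratio over all genes was -0.02 in gated and -0.01 in other Foxp3 cells. The share of all genes in each direction was not counted for this contrast. The counts by direction given for lists between the libraries therefore have no such share beside them. Of the 42 genes, 27 were also measured in other Foxp3 cells, where 9 of the higher and 13 of the lower kept their direction. The 27 were not counted by direction, so the 9 and 13 are not shares of the 18 and 24. Apart from Nfe2l2, 4 of the 18 genes higher in gated cells belonged to the interferon response list. Ifit1, an interferon-induced RNA-binding protein, was at 57.4 CPM in gated cells of the control library and 139 CPM in those of the library labelled Cd4cre, and its log2 ratio was 1.27 (1.00 to 1.55). In other Foxp3 cells it was at 51.4 and 77.4 CPM. Isg15, a ubiquitin-like protein, was at 336 and 606 CPM in gated cells and at 326 and 386 CPM in other Foxp3 cells. Of 26 measured interferon genes 24 had the higher level in the library labelled Cd4cre and 4 were called, with a median log2 ratio of 0.67 in gated and 0.31 in other Foxp3 cells, whose difference was not tested. Ly6a was an exception, at 2191 and 1400 CPM in gated cells. Macrophage material also differed between the libraries, with the Lyz2 droplets making up 4.27% of the control library's filtered cells against 12.2% for the library labelled Cd4cre, and with Ccl24 at 17 and 103 UMIs and Cst3 at 579 and 1131 UMIs in gated cells. Its part in the interferon values was not tested.

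**Figure D5:**
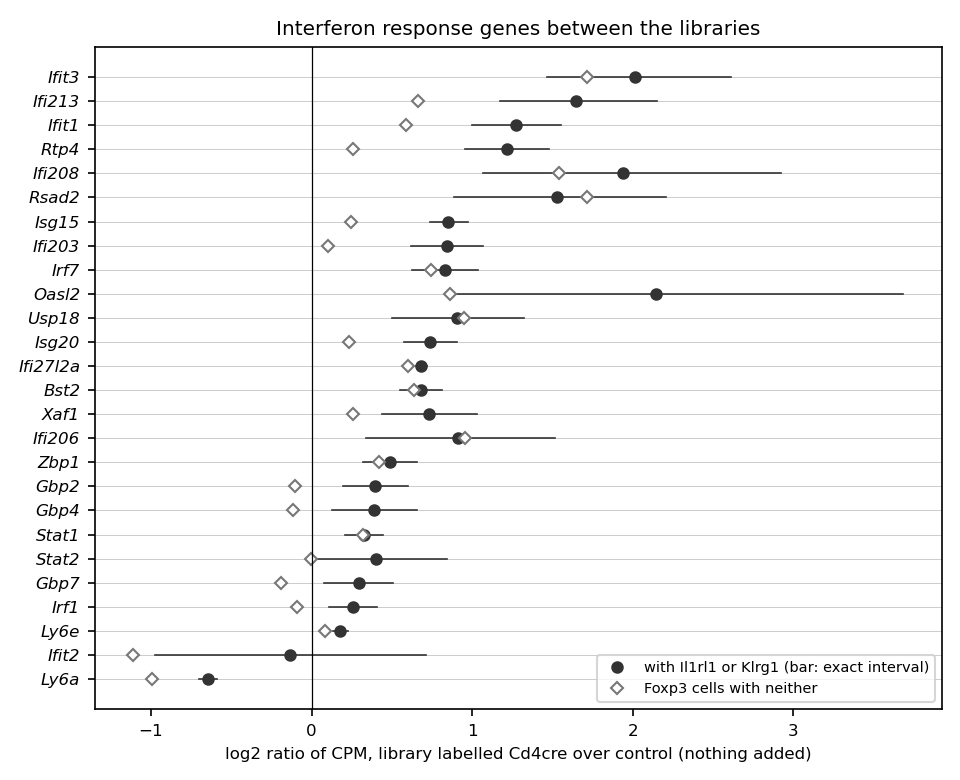
Log2 ratio of CPM in the library labelled Cd4cre over the control library (x axis, nothing added) for the interferon response genes measured in gated cells. Filled points are gated cells with exact intervals, open diamonds are other Foxp3 cells, and 24 of the 26 filled points lie above 0.

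Ccl5, a chemokine of cytotoxic and memory T cells, was at 143 and 535 CPM in gated cells of the control library and the library labelled Cd4cre, and at 215 and 189 CPM in other Foxp3 cells. It was seen in 74 and 151 gated cells, and the 5 highest cells held 34.2% and 49.6% of its UMIs. H2-Aa, a class II gene of antigen-presenting cells, was at 17.9 and 57.5 CPM, in 7 and 13 gated cells. Cd79a, a B cell marker, had 1 UMI in gated cells of the control library and 29 in those of the library labelled Cd4cre, and its part in these differences was not tested.

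Of the 10 named lower genes, several were cytokine genes seen in few cells, and leaving out the 5 highest cells per gene, a choice made after seeing the data, took the 24 lower calls to 13. Il13 was at 502 and 70.2 CPM, Il5 at 66.9 and 9.63 CPM in 15 and 7 cells, and Il4 at 53.4 and 9.94 CPM in 12 and 7 cells. Their directions were not stable, since after thinning and gating again the log2 ratios turned to 0.45 for Il5 and 0.33 for Il4, and with 2 Foxp3 UMIs required that of Il4 turned to 0.17. Ccl3 was at 80.1 and 2.49 CPM in 8 and 5 cells. In the library labelled Cd4cre each of the 16 measured type 2 helper genes was lower before thinning, Il4 and Il5 included, and 5 were called. The median log2 ratio of that list was -0.76 in gated cells and -0.52 in other Foxp3 cells, so it was below 0 in both sets. Cxcl3 and Ero1l were spread over more cells. Cxcl3, a neutrophil-attracting chemokine, was at 285 and 101 CPM in 69 and 55 cells. Ero1l, which did not reach 2-fold with 10 CPM added and encodes an oxidase of the endoplasmic reticulum, was at 86.5 and 43.2 CPM in 114 and 105 cells.

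Of 25 NRF2 target genes in gated cells, 9 had the higher and 16 the lower level in the library labelled Cd4cre and none was called, with a median log2 ratio of -0.04 against -0.02 over all genes. Txnrd1, which encodes thioredoxin reductase, was at 62.1 and 36.7 CPM, a log2 ratio of -0.76 (-1.12 to -0.41). Gclm, a subunit of the enzyme that starts glutathione synthesis, was at 71.3 and 91.3 CPM, and Gclc, its catalytic partner, at 24.3 and 22.1 CPM. The list of tissue regulatory genes had a median of 0.00 and the core list one of 0.02 between the libraries. All 14 class I genes had the higher level in the library labelled Cd4cre, and their median log2 ratio was 0.24 in gated and 0.18 in other Foxp3 cells.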

How the data were processed

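The data are 10x 5′ single-cell libraries, 1 from each genotype. The deposited values are raw UMI counts per gene and cell, made by the authors with Cell Ranger 4.0.0 on GRCm38, per the submitters' processing notes. Counts were summed over the cells of each set and library and divided by the set's total to give CPM. Ratios used for calls, rankings and list medians add 10 CPM and need at least 30 UMIs, and a call needs 2-fold. Fold values printed for single genes, and log2 ratios printed with an interval, add nothing. Intervals are exact Poisson, exact conditional binomial, Clopper-Pearson or, for differences of shares, Newcombe (95%). Cells were thinned to 2000 UMIs with 1 fixed seed. No doublet caller was run. With 1 library per group no test was made, and totals of 1421010 to 3219173 UMIs per set bound the precision.

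Named genes were the 20 highest and 12 lowest ratios of at least 50 CPM with the same sign in both libraries, the 10 highest and 10 lowest for the other contrasts, and set members of each list. The members and lists were chosen with earlier results of these data known. The scripts ran in Python 3.11.15 with numpy 2.4.6, scipy 1.17.1, pandas 2.3.3 and matplotlib 3.10.9 and were tested on simulated data. Alternatives changed the gate, depth, scaling, filter and added CPM.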

Additional observations from a re-analysis of the deposited data

Results flagged for a closer look

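By summed UMIs, Ccl5 differed in direction between the libraries. In the control library gated cells held 143 CPM and other Foxp3 cells 215 CPM, a log2 ratio of -0.56, and in the library labelled Cd4cre they held 535 and 189 CPM, a log2 ratio of 1.45. The gap between the 2 log2 ratios was 2.00, and the difference was not tested. By share of thinned cells, the gated cells had the higher value in both libraries. Ccl5 was found in 14.2% of gated (10.7 to 18.4) and 11.4% of other Foxp3 cells (7.49 to 16.3) of the control library. In the library labelled Cd4cre it was found in 20.0% (16.5 to 23.8) and 13.0% (9.41 to 17.3). The 5 highest gated cells of the library labelled Cd4cre held 49.6% of its UMIs.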

How the results depend on the processing

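No paired analysis was possible because there is a single library of each genotype. The count of genes higher in gated than in other Foxp3 cells went from 6 to 2 with cells thinned to 2000 UMIs and gated again, neither of them among the 6, to 21 with 1 CPM added and to 1 with 50 CPM added. The count of lower genes went from 3 to 1 with 2 Foxp3 UMIs required, 5 within classes of depth, 6 by the mean of cells, 9 with 1 CPM and 0 with 50 CPM. Of 16 alternatives, Rln3 stayed called in 15 (all but thinning), Ccr7 and Ctsh in 14, Tcf7 in 12 and Il13 in 8. Thinning moved the median log2 ratio of the resting list in the control library to -0.12 and that of the interferon list in the library labelled Cd4cre to 0.10. It turned Ccl4 (-3.49), Il13 (-0.061) and Penk (-0.082) in the control library and Oxsr1 (0.046) in the library labelled Cd4cre, and classes of depth turned Il13 there (-0.066). Between libraries, the count of higher genes went from 18 to 30 thinned, 10 with 100 UMIs required, 71 with 1 CPM and 2 with 50 CPM. That of lower genes went from 24 to 15 thinned, 15 without cells with Il4, Il5 or Il13, 84 with 1 CPM, 6 with 50 CPM and, an alternative chosen after seeing the data, 13 without the 5 highest cells per gene. Thinning turned Ccl1 (0.24), Il5 (0.45) and Il4 (0.33), 2 Foxp3 UMIs turned Il4 (0.17), and leaving out the cytokine cells turned Ccl1 (0.093) and Lgals7 (0.21). Il4, Il5 and Il13 have no value without the cells that hold them. The gate's share became 55.2% and 55.7% with 2 receptor UMIs, and 44.7% and 47.9% when Foxp3 was also required after thinning. In all, 5 of 1022 and 6 of 317 values for named genes changed sign in the 2 contrasts. These totals include the settings that changed only the added CPM or the minimum count, which cannot change a sign. The named genes were also picked for the size of their ratios, so the totals do not measure how stable other genes are. The cause of the sign changes was not tested. With 1 library per genotype, depth limits low genes and mouse-to-mouse spread is unknown.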

Other observations

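Further lists were read beside all measured genes, of which 24.6% were higher in gated cells of both libraries and 30.9% lower. Of 14 checkpoint and costimulation genes, 6 were higher and 8 lower in gated cells of both libraries, and of 17 glycolysis genes 3 were higher and 5 lower. Of 21 lipid handling genes 9 were higher and 2 lower in both. Among them, Dgat2, an enzyme of triglyceride synthesis, was at 38.6 CPM in gated and 10.6 CPM in other Foxp3 cells of the control library, and at 32.3 and 15.5 CPM in the library labelled Cd4cre. Gpx4, which reduces lipid peroxides but belongs to the NRF2 target list and not to this one, was at 688 against 511 CPM and at 681 against 509 CPM.

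Of 17 chemokine receptor genes 4 were higher and 7 lower in both libraries. Ccr8, a receptor of tissue regulatory T cells, was at 621 against 452 CPM and at 578 against 483 CPM. Of 17 residence and adhesion genes 11 were higher and 5 lower, among the higher Itgae, which encodes the integrin chain CD103, at 255 against 198 CPM and 271.5 against 207 CPM.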
